A study of Bos taurus with 40 samples.

Results

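The comparison described here sets the endometrium of the 2 uterine horns of heifers (Bos taurus) against each other on day 5. It rests on the 10 libraries titled for that day, 5 from the ipsilateral horn and 5 from the contralateral horn, of 40 in the series, whose other 30 come from days 7, 13 and 16. Ipsilateral means on the same side as the ovary with the corpus luteum. The animals were synchronized heifers, and per the series' design text the days count from estrus, while the labels speak of days of pregnancy. No source used here says whether any of them carried an embryo. Apart from the synchronization no treatment is named for either horn, and no genotype, strain or age is given for the animals. RNA was taken from about 100 mg of homogenised tissue, so each value is an average over epithelium, glands, stroma, vessels and any other cells in the piece. The horns share tags in the sample titles, but only 1 of 5 tags had libraries that deviated together from their group means, so the horns were treated as 2 groups. The other 4 ipsilateral libraries deviated most like a contralateral library of another tag: 1-315 like 3-175 (r = 0.46 across genes) and 3-175 like 1-315 (0.72), 4-184 like 7-300 (0.32) and 7-300 like 4-184 (0.51). These correlations come from the values, the labels give no such pairing, and no fit was made with it. Nothing says that the libraries of 1 horn come from separate animals beyond those tags and the stated 5 heifers, and p-values measure the spread between these libraries. Libraries are named here by horn and tag, and values per library are always given in the tag order 1-315, 3-175, 4-184, 7-300 and 8-1350.

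After ovulation the follicle becomes the corpus luteum, whose progesterone reaches the uterus through the general circulation and also by local vessels on its own side. In the days after estrus rising progesterone turns the endometrium from growth under estrogen to secretion, and the luminal and glandular epithelium makes the fluid that feeds an early embryo. The stroma below it carries much of the steroid signalling, and the outer wall of the uterus, the myometrium, is smooth muscle.

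Library totals were 27.97 to 64.4 M gene counts. Ipsilateral library 3-175 was the deepest, the next held 41.3 M, and no difference in totals between the horns passed the test (38.9 ± 15.2 against 35.4 ± 2.60 M, mean ± SD, n = 5 each, exact permutation adjusted p = 0.984 over 4 measures). The share of counts in microRNA genes did differ. It was 0.00930 ± 0.000731% in the ipsilateral and 0.00723 ± 0.000540% in the contralateral horn (SD, n = 5 each), with no overlap (exact two-sided permutation p = 0.00794, adjusted p = 0.0317). Without any 1 contralateral library the adjusted p of this permutation test was 0.0635, so the difference did not pass. The shares of the remaining libraries still did not overlap, and this smaller test has fewer arrangements and thus coarser p-values. One library stood apart. In ipsilateral library 8-1350, 109 genes lay at least 4-fold above all other 9 libraries, against 0 to 2 genes for any other library. Among them were genes of smooth muscle: ACTA2, the actin of smooth muscle, was at 2515 CPM (TMM-scaled counts relative to library size) there and 223 to 502 in the other 9, and MYH11, its myosin, at 514 against 56.4 to 124. The muscle filament gene DES, at 502 against 51.7 to 127, was also highest there but not by 4-fold. The 24 smooth muscle markers summed to 9725 CPM in this library and to 1992 to 3407 CPM in the other 9. Secreted factors were among the 109 as well: RSPO1, an amplifier of WNT signals, was at 153 against 0.0276 to 0.527 CPM, HPSE2, heparanase 2, at 237 against 0.128 to 1.33, and IGFBP5, a binding protein of insulin-like growth factors, at 2957 against 28.7 to 123. ACTA2, MYH11, DES and HPSE2 were picked for these values. Results that rest on this library are given with and without it.

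**Figure D1:**
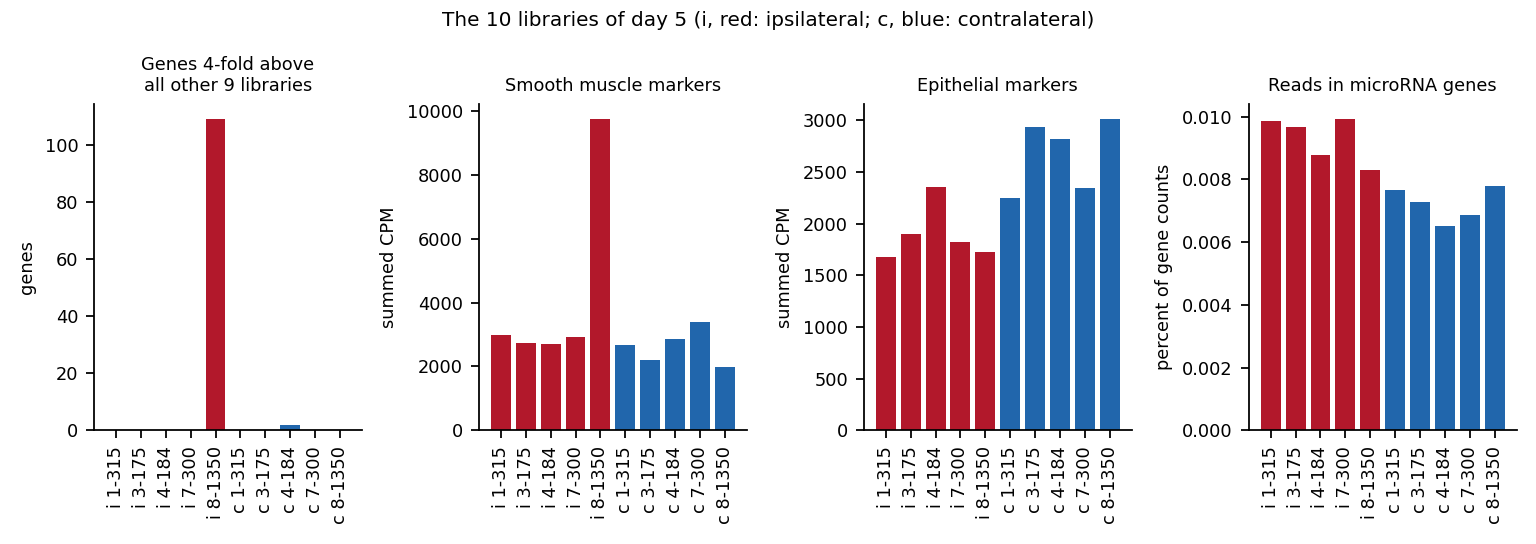
Bars show the 10 libraries of day 5, ipsilateral in red and contralateral in blue, labelled by tag: genes at least 4-fold above all other 9 libraries, summed CPM of 24 smooth muscle and of 25 epithelial markers, and the percent of counts in microRNA genes. Ipsilateral 8-1350 stands apart with 109 genes and 9725 CPM of smooth muscle markers, and microRNA shares do not overlap between horns.

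The horns differed in 2884 of 18825 genes tested, which is 15.3%, by edgeR's quasi-likelihood test at a Benjamini-Hochberg adjusted p below 0.05; these genes are termed called. In the ipsilateral horn 2012 were higher, 10.7% of those tested, and 872 were lower, 4.63%. The rises were larger than the falls. Of the higher genes 446 changed at least 2-fold and 74 at least 4-fold, and the lower genes held 8 and 0. The median log2 fold change was 0.67 among the higher, -0.38 among the lower and 0.00 over all genes tested. Without regard to the test, every ipsilateral library lay above every contralateral one in 1782 genes (9.47%) and below in 808 (4.29%). Without ipsilateral 8-1350 the test called 3252 genes, 1881 higher (9.86%) and 1371 lower (7.19%), and 2492 of the 2884 were among them. That moved the share of higher genes among those called from 69.8% to 57.8%. Counts fell to 1506 without contralateral 4-184, 1534 without contralateral 3-175, 1791 without ipsilateral 7-300 and 1821 without ipsilateral 1-315. All 2884 genes kept their direction in each of these fits. These fits share all but 1 library with the full fit, so that was nearly fixed in advance. When the percent of reads in microRNA plus tRNA genes entered the 10-library fit as a covariate, edgeR called 0 genes (2306 at an unadjusted p under 0.05), and in that fit the horn and the share cannot be told apart. A fit over all 40 libraries called 4628 genes for day 5 without this covariate and 2240 with it. Of the 2884 genes, 1525 were among those 2240.

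**Figure D2:**
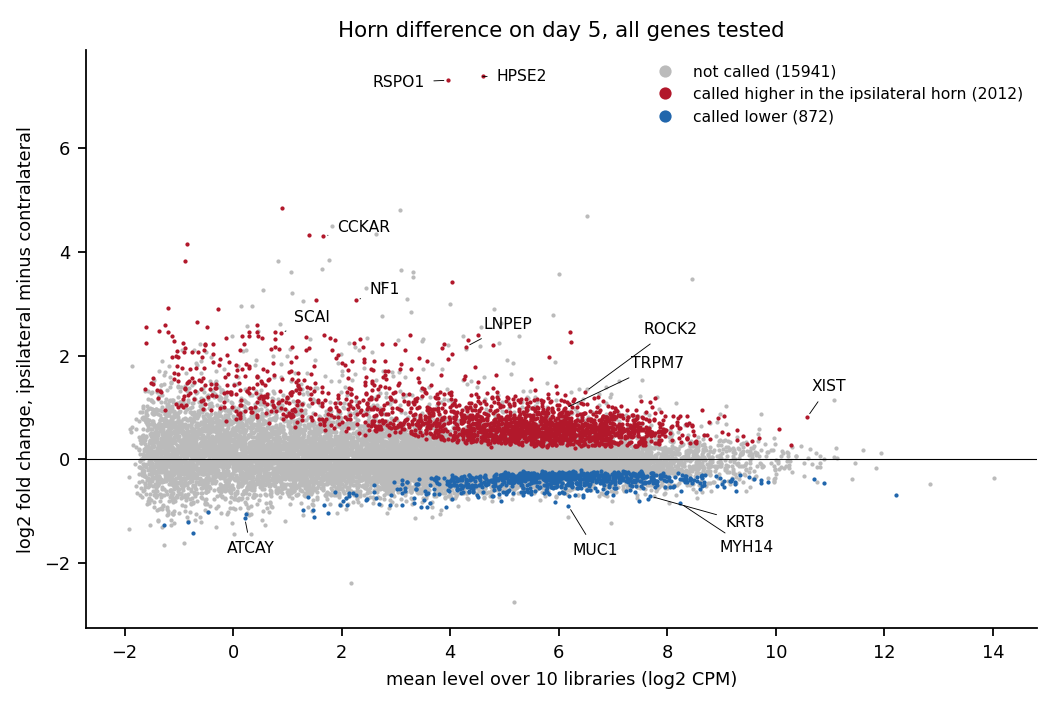
Each point is 1 of 18825 genes tested, with its mean level over 10 libraries (log2 CPM) on the x axis and its log2 fold change, ipsilateral minus contralateral, on the y axis. Called genes are red where higher (2012) and blue where lower (872), and the rises reach further from 0 than the falls.

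The smallest p-values belonged to rises of about the same size in 10 genes. TRPM7, an ion channel joined to a kinase, was at 87.9, 89.96, 94.8, 94.1 and 91.5 CPM in the ipsilateral libraries and at 47.3, 42.4, 44.3, 47.5 and 50.8 in the contralateral ones, a log2 fold change of 0.98 (SE 0.070, adjusted p = 0.000421). Its ipsilateral values lay close together and all above the contralateral ones. PIK3CA, the catalytic subunit of phosphoinositide 3-kinase, was at 35.2, 38.8, 40.2, 37.7 and 37.4 against 17.2, 14.1, 15.8, 15.3 and 20.04 CPM, a difference of 1.197 (SE 0.10, adjusted p = 0.000692). ROCK2, a kinase downstream of the small GTPase RHOA, was at 114, 111, 129.7, 129.9 and 154 against 56.8, 47.1, 40.6, 55.5 and 58.8 CPM (log2 1.305, SE 0.13, adjusted p = 0.000923), and PPP1R12A, the targeting subunit of the myosin phosphatase that ROCK2 inhibits, rose by 1.19 (SE 0.11, adjusted p = 0.000887). Neither gene overlapped between the horns. Among genes of chromatin proteins, the Polycomb group gene PHC3 was at 131 to 150.4 against 69.01 to 82.1 CPM (log2 0.91, SE 0.076, adjusted p = 0.000692), the remodelling enzyme CHD9 at 99.1 to 117 against 40.3 to 56.3 (log2 1.13, SE 0.10, adjusted p = 0.000692) and the histone methyltransferase ASH1L at 195 to 246 against 118 to 136 (log2 0.84, SE 0.082, adjusted p = 0.000923). The remaining 3 of the 10 smallest p-values were the DNA repair gene ERCC6L2 (0.90), BBX, which encodes a DNA-binding protein with an HMG box (0.93), and a second entry of the kinase gene CDC42BPA (1.27), whose first entry had 0 reads in all 10 libraries. The 10 genes rose by 0.84 to 1.30 on the log2 scale, with adjusted p of 0.000421 to 0.000923. All stayed called without each library in turn. They were picked for the smallest p in these same libraries, so that was nearly fixed in advance.

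Larger rises were found in genes at low levels in the contralateral horn. NF1, which encodes neurofibromin, a protein that switches RAS off, was at 10.3, 7.78, 8.04, 9.69 and 6.55 CPM in the ipsilateral and 0.650, 0.884, 0.451, 1.81 and 1.26 CPM in the contralateral libraries. The log2 fold change was 3.06 (SE 0.34, adjusted p = 0.00115), and the lowest ipsilateral library lay above the highest contralateral one. SCAI, a cofactor that restrains transcription driven by actin signalling, was at 4.23, 2.78, 1.81, 3.62 and 2.68 against 0.650, 0.193, 0.515, 0.613 and 0.820 CPM (log2 2.43, SE 0.37, adjusted p = 0.00242). DCX, a microtubule-binding protein best known from migrating neurons, was at 4.597, 3.33, 3.7001, 5.41 and 3.85 against 0.948, 0.414, 0.451, 1.31 and 0.897 CPM (log2 2.37, SE 0.33, adjusted p = 0.00174). These genes were near or under 1 CPM in most contralateral libraries and above it in all ipsilateral ones. LNPEP, the aminopeptidase that breaks down oxytocin, was more abundant, at 36.9, 26.05, 34.2, 39.7 and 22.6 against 5.34, 4.09, 5.28, 13.9 and 6.84 CPM (log2 2.17, SE 0.32, adjusted p = 0.00222). The ubiquitin ligase HERC1 (2.31), the transcription factors PLAG1 (2.22) and FOXP2 (2.34), SLFN12 (2.17) and CXHXorf22 (2.46) rose likewise with no overlap. These genes belong to the 15 highest log2 fold changes among called symbols with a mean log2 CPM of at least 0 and no overlap between horns. Lack of overlap was thus a condition of entry into this set and not a result. Rises such as that of HPSE2 (7.38) or CCKAR (4.299) are outside this set because their horns overlap. Of the 15, 10 stayed called without each library in turn, and the other 5 were highest in ipsilateral 8-1350. RSPO1 differed by 7.31 with it (adjusted p = 0.0415) and by 1.13 without it (adjusted p = 0.154). Without that library the log2 fold change of CLGN, a chaperone, went from 4.85 to 1.69 (adjusted p = 0.0194), of the glucose phosphate enzyme PGM2L1 from 2.39 to 0.92 (0.0440), of the cationic amino acid carrier SLC7A2 from 2.31 to 0.96 (0.0214) and of the cGMP-dependent kinase PRKG1 from 2.199 to 1.39 (0.00972). Of the 10 fits that each left out 1 library, RSPO1 lost its call in 6, CLGN in 5, PGM2L1 in 8, SLC7A2 in 7 and PRKG1 in 2, and each of these genes lost it without contralateral 3-175 and without contralateral 4-184.

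Among RNAs that are not translated, XIST, the long RNA that coats the silent X chromosome and stays in the nucleus, was at 2184, 1832, 1934, 2201 and 1573 CPM in the ipsilateral and 1248, 1069, 1031, 1090.3 and 1109 CPM in the contralateral libraries, a log2 fold change of 0.81 (SE 0.11, adjusted p = 0.00184). It was chosen after its values were seen, and the groups did not overlap. Among 49 microRNA genes tested, 5 were higher and 0 lower by edgeR, a share near the 10.7% called higher among all genes, and their median log2 fold change was 0.23. MIR4657 was at 2.15, 2.501, 3.34, 2.74 and 2.71 against 0.786, 0.580, 0.676, 1.23 and 1.33 CPM (log2 1.54, SE 0.27, adjusted p = 0.00484), and MIR186 (1.35), MIR1839 (1.17), MIR374B (0.98) and MIR421 (0.89) followed. Poly(A) libraries do not capture mature microRNAs as such, and which transcripts these reads came from was not tested. None of 13 tRNA genes tested was called.

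**Figure D3:**
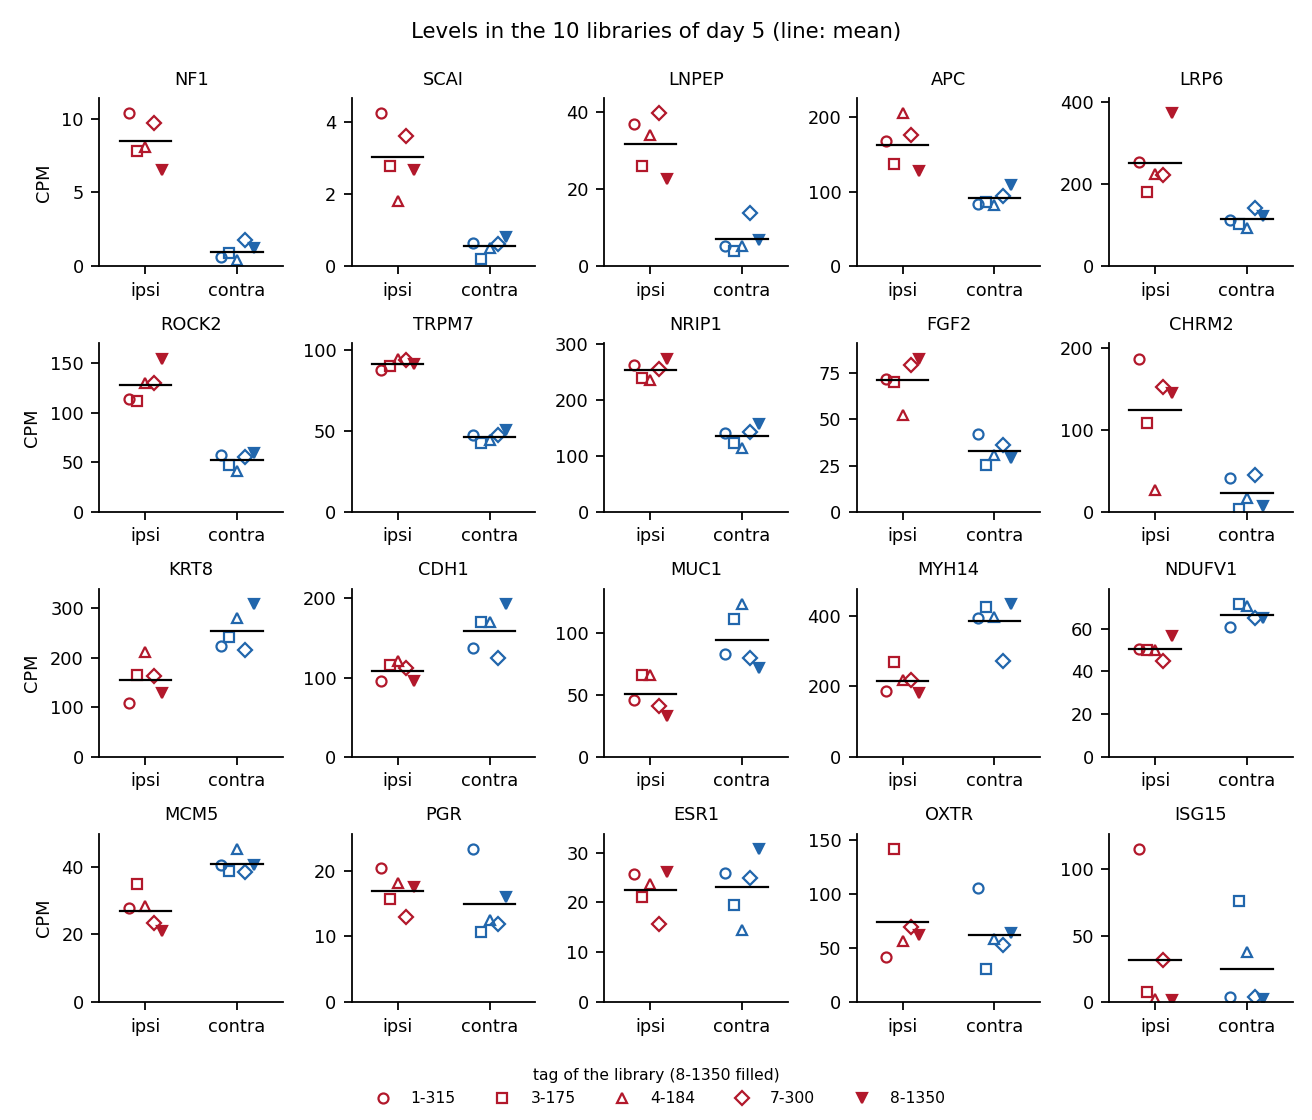
Each panel plots the CPM of 1 gene in the 5 ipsilateral (red) and 5 contralateral (blue) libraries of day 5, with a symbol per tag, 8-1350 filled, and a line at the group mean. NF1, SCAI, LNPEP, APC, LRP6, ROCK2, TRPM7, NRIP1 and FGF2 sit higher in every ipsilateral library, KRT8, CDH1, MUC1, MYH14, NDUFV1 and MCM5 lower, while CHRM2, PGR, ESR1, OXTR and ISG15 overlap.

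Epithelial genes were lower in the ipsilateral horn. Of 25 epithelial markers, all tested, 15 were lower and 0 higher by edgeR, beside 4.63% lower among all genes, and the median log2 fold change was -0.54. KRT8, a keratin of simple epithelium, was at 108, 165, 211, 163 and 129 CPM in the ipsilateral and 223, 241, 280.1, 215 and 308 CPM in the contralateral libraries (log2 -0.71, SE 0.17, adjusted p = 0.0210). The adhesion gene CDH1 was at 95.2, 115, 121, 113 and 96.2 against 137, 169, 169.6, 124 and 193 CPM (log2 -0.55, SE 0.13, adjusted p = 0.0165). AP1M2, the clathrin adaptor subunit of epithelial cells, was at 49.4 to 69.4 against 69.5 to 108 CPM (-0.70), the surface protease PRSS8 at 13.6 to 19.99 against 24.1 to 28.4 (-0.62), the protease inhibitor SPINT1 at 27.6 to 38.3 against 39.2 to 56.5 (-0.55) and the splicing factor ESRP2 at 42.3 to 59.4 against 59.9 to 81.7 (-0.54). These 6 of the 25 did not overlap between the horns, beside 4.29% of all genes that were lower without overlap. The summed level of the list was 1677 to 2354 CPM in the ipsilateral and 2253 to 3008 CPM in the contralateral libraries. In such homogenates fewer epithelial cells and less RNA per cell cannot be told apart. Without ipsilateral 8-1350 13 of the 25 were lower; 7 were lower without ipsilateral 1-315, ipsilateral 7-300, contralateral 3-175 or contralateral 8-1350, and 6 without contralateral 4-184, which also lost KRT8 (adjusted p = 0.0519).

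Narrower epithelial lists gave no calls over all 10 libraries, though most of their members had a negative log2 fold change (8 of 8 uterine gland, 8 of 11 multiciliated). Without ipsilateral 8-1350, 1 multiciliated marker was called lower and the median was -0.56. Fits without 1 library called 0 to 2 gland markers lower. In edgeR 0 of 8 uterine gland and 0 of 11 multiciliated markers were called, with medians of -0.35 and -0.47; 2 of each list were lower at an unadjusted p under 0.05, and DESeq2 called 1 of each lower. MUC1, a mucin that covers the luminal surface, was at 45.7, 66.1, 66.4, 40.96 and 33.2 against 83.4, 111, 124, 79.9 and 71.7 CPM (log2 -0.90, SE 0.22, adjusted p = 0.0204), with no overlap, but its adjusted p reached 0.0548 and the call was lost without ipsilateral 1-315, ipsilateral 7-300, contralateral 3-175 or contralateral 4-184. It was the 1 called gene of 15 mucins and surface glycoproteins, beside 15.3% called among all genes. The non-muscle myosin gene MYH14 was at 188, 270.1, 217, 218 and 181 against 393, 425, 397, 274 and 435 CPM (log2 -0.84, SE 0.15, adjusted p = 0.00462), and the choline transporter-like SLC44A4 at 39.9, 47.2, 55.96, 33.1 and 42.9 against 71.6, 82.7, 82.97, 59.03 and 91.04 (log2 -0.82, SE 0.15, adjusted p = 0.00600). Both were lower in every ipsilateral library. Further falls without overlap were found in ATCAY (-1.12), TUBB4A, a beta tubulin (-0.91), P2RX6, an ATP-gated channel subunit (-0.88), TMEM184A (-0.78) and CELSR2, a cadherin of planar cell polarity (-0.72). The 15 lowest log2 fold changes under the same limits (called symbols, mean level, no overlap) ran from -0.70 to -1.12, and 8 of them stayed called without each library in turn. For these 15 as well the lack of overlap was a condition of entry. Of 29 epithelial transport genes 4 were lower, beside 4.63% among all genes. Among them were SLC44A4, the scaffold SLC9A3R1 (-0.56) and the amino acid carrier SLC1A4 (-0.50). The list also held 2 higher genes, beside 10.7% among all genes. SLC38A2, a carrier of neutral amino acids, was at 260.3 to 348 against 147 to 246 CPM (0.57), and the chloride cotransporter SLC12A2 rose by 0.49. SLC1A4 and SLC12A2 lost their calls in 6 and 8 of the 10 fits without 1 library, and SLC38A2 in 2.

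Genes of energy metabolism and sterol synthesis were lower too. Of 29 nuclear genes of mitochondrial respiration 11 were lower and 0 higher, beside 4.63% lower among all genes. All 29 had a negative log2 fold change, and the median was -0.30. NDUFV1 of complex I was at 50.4, 49.9, 49.8, 44.7 and 56.3 CPM in the ipsilateral and 60.7, 71.6, 70.3, 64.8 and 64.98 CPM in the contralateral libraries (log2 -0.40, SE 0.081, adjusted p = 0.00823). UQCRC1 (-0.35) and CYC1 (-0.33) of complex III and COX5A (-0.40) and COX8A (-0.41) of complex IV fell with no overlap. Without ipsilateral 8-1350 the count went from 11 to 19 of 29, while the share lower among all genes went to 7.19%. The count was 8 without ipsilateral 7-300, the lowest of the fits without 1 library, and 4 with a block for the tags. The share of reads on the mitochondrial genome itself was 0.120 ± 0.0330% and 0.119 ± 0.0258% (SD, n = 5 each, exact permutation adjusted p = 0.984). Of 26 genes of cholesterol synthesis and uptake 7 were lower, beside 4.63% among all genes, and 1 was higher, beside 10.7%, with a median of -0.32. The sterol isomerase EBP was at 15.6 to 21.3 against 19.9 to 32.5 CPM (log2 -0.73, SE 0.15, adjusted p = 0.00870), and SCAP, the sterol-sensing escort of SREBP, was lower (-0.35) with no overlap and stayed called in every fit without 1 library. DHCR7 (-0.59), which makes cholesterol from its last precursor, and SREBF2 (-0.51), which encodes the master transcription factor, lost their calls in 6 and 6 of those 10 fits. STARD4, a sterol carrier, was the higher one (0.67, lost in 6 fits). The count of 7 fell to 2 without any 1 of ipsilateral 1-315, 3-175 or 7-300 or contralateral 3-175, 4-184 or 8-1350.

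Replication and matrix genes were called lower about as often as all genes (4.63%), and folding genes in 2 of 20, a count that varied between fits. Of 20 genes of the unfolded protein response and folding, CALR (-0.40) and PDIA4 (-0.42) were lower with no overlap, and lost their calls in 3 and 4 fits. They encode a calcium-binding chaperone and a disulfide isomerase of the endoplasmic reticulum. DESeq2 called 5 of the 20 lower, beside 1699 of all 18825 genes. Fits without 1 library called 0 to 6 lower, and the fit with a block for the tags called 0. Of 38 replication and mitosis genes, MCM5, a subunit of the replicative helicase, was at 27.8, 34.8, 28.4, 23.3 and 20.8 against 40.5, 38.8, 45.2, 38.5 and 40.4 CPM (log2 -0.59, SE 0.13, adjusted p = 0.0129), and its partner MCM2 was lower too (-0.53), with ipsilateral 3-175 inside the contralateral range. Both stayed called without each library in turn. The other 36 were not called, so 2 of 38 is near the share among all genes, and without ipsilateral 8-1350 3 were lower and 2 higher. In the extracellular matrix list, 2 of 48 were lower, a share near that among all genes: COL1A1, a chain of type I collagen, at 3199 to 4424 against 3901 to 7640.2 CPM (log2 -0.69, SE 0.19, adjusted p = 0.0313, lost in 5 fits), and the basement membrane chain LAMA5 (-0.38).

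Receptors for steroid hormones and their co-regulators differed in part. PGR, the progesterone receptor, was at 20.4, 15.7, 18.2, 12.9 and 17.5 CPM in the ipsilateral and 23.3, 10.6, 12.5, 11.8 and 15.96 CPM in the contralateral libraries, a difference of 0.19 (SE 0.21, adjusted p = 0.598), and the horns overlapped. ESR1, the main estrogen receptor of the uterus, was at 15.7 to 26.05 against 14.5 to 30.7 CPM (log2 -0.04, SE 0.20, adjusted p = 0.914). Neither was called. NRIP1, a co-regulator that many nuclear receptors recruit, was at 263, 239, 236, 256 and 274 against 141, 123, 114, 143 and 157 CPM (log2 0.90, SE 0.10, adjusted p = 0.00115). NR3C1, the glucocorticoid receptor, was at 59.5, 62.9, 51.1, 62.98 and 39.4 against 39.9, 32.2, 30.6, 39.98 and 30.9 CPM (log2 0.67, SE 0.14, adjusted p = 0.0112), with ipsilateral 8-1350 just below contralateral 1-315 and 7-300. NRIP1 and NR3C1 stayed called without each library in turn. The coactivators NCOA1 (0.41) and NCOA3 (0.37) were higher by smaller steps and each lost its call in 2 of those fits. In all 5 of 19 members were higher and 1 was lower, beside 10.7% and 4.63% among all genes, with a median of 0.17. NCOA3 was named after its values were seen. Of 25 targets of progesterone and estrogen 1 was higher and 3 were lower by edgeR, beside 10.7% and 4.63% among all genes. The higher one was LIFR, a receptor of the cytokine LIF (log2 0.71, SE 0.15, edgeR adjusted p = 0.0105). The lower ones were MUC1, the homeobox gene MSX1 (-0.53, lost in 4 fits) and TFF3, a trefoil peptide of mucus (-0.81, lost in 8 fits).

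Among growth factors FGF2 and IGF1 were higher. FGF2, basic fibroblast growth factor, was at 71.9, 70.5, 52.2, 79.5 and 82.9 CPM against 42.2, 25.03, 30.5, 36.4 and 29.1 CPM, a log2 fold change of 1.13 (SE 0.16, adjusted p = 0.00192). IGF1, insulin-like growth factor 1, was at 763, 415, 806, 737 and 399 against 277, 352, 319, 471 and 384 CPM (log2 0.79, SE 0.23, adjusted p = 0.0390). It overlapped between the horns and lost its call in 7 of the 10 fits without 1 library. IGF1 was the 1 called gene of 15 in the IGF list, beside 15.3% called among all genes. IGFBP5 differed by 3.47 with ipsilateral 8-1350 and by 0.05 without it, and was not called in either (adjusted p = 0.0914 and 0.952). In the WNT list 4 of 43 were higher and 1 was lower, shares no larger than those among all genes (10.7% and 4.63%), with a median of -0.03. LRP6, a co-receptor for WNT ligands, was at 253, 180.4, 225, 223 and 373 against 113, 102, 94.6, 141 and 124 CPM (log2 1.13, SE 0.19, adjusted p = 0.00350), and APC, a scaffold of the complex that destroys beta-catenin, was at 168, 137, 205, 177 and 128 against 83.5, 86.1, 82.6, 94.1 and 109.7 CPM (log2 0.84, SE 0.14, adjusted p = 0.00339). Both stayed called in every fit without 1 library, and LRP6 stood at 0.91 without ipsilateral 8-1350. GSK3B, the kinase of that complex (0.69), the inhibitor DKK2 (1.22) and the co-receptor LRP5, which was lower (-0.34), lost their calls in 7, 7 and 8 of those fits. Of 30 secreted components of uterine fluid, FGF2 was higher and TFF3 lower, fewer than the shares among all genes.

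The size of the difference in smooth muscle genes depended on ipsilateral 8-1350. The median of 24 smooth muscle markers was 0.72 over all 10 libraries and -0.07 without ipsilateral 8-1350, and 3 were higher by edgeR in both fits, a share near the 10.7% and 9.86% higher among all genes. Without contralateral 3-175 or 4-184 only 1 was higher, and 2 without contralateral 8-1350. PLN, phospholamban, the inhibitor of the sarcoplasmic calcium pump, was at 12.9, 11.7, 9.82, 12.7 and 18.97 against 6.23, 5.88, 4.64, 5.72 and 5.099 CPM (log2 1.26, SE 0.18, adjusted p = 0.00197), and 1.07 without that library (adjusted p = 0.00257). The actin-binding CALD1 was at 427, 394, 416, 471 and 925 against 265, 234, 258, 328 and 276 CPM (log2 0.95, SE 0.23, adjusted p = 0.0191, and 0.62 without it), and the integrin ITGA8 at 77.6, 82.6, 41.8, 75.7 and 337 against 30.8, 12.3, 20.9, 48.96 and 15.5 (log2 2.26, SE 0.58, adjusted p = 0.0258, and 1.41 without it). Both lost their calls without contralateral 3-175 or contralateral 4-184, ITGA8 also without contralateral 8-1350. MYOCD, the master coactivator of smooth muscle genes, was at 2.03, 1.84, 1.96, 1.62 and 30.6 against 1.79, 1.35, 1.095, 2.68 and 1.56 CPM: only ipsilateral 8-1350 was high, and without it the difference was 0.10 (adjusted p = 0.829).

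Of 21 receptors that drive or relax contraction 2 were higher, a share near the 10.7% among all genes. CHRM2, the M2 muscarinic receptor for acetylcholine, was at 188, 109, 25.97, 153 and 145 against 41.6, 3.73, 16.5, 44.6 and 7.23 CPM (log2 2.45, SE 0.69, adjusted p = 0.0367). Its low ipsilateral library, 4-184, overlapped with the contralateral ones, and its call was lost without any 1 of 7 libraries, ipsilateral 1-315, 3-175, 7-300 and 8-1350 and contralateral 3-175, 4-184 and 8-1350. Without ipsilateral 8-1350 it stood at 2.36 (adjusted p = 0.0531). CCKAR, a receptor for cholecystokinin, was at 4.66, 4.38, 0.356, 2.002 and 18.04 against 1.03, 0.0553, 0.193, 0.146 and 0.0512 CPM (log2 4.299, SE 1.06, adjusted p = 0.0217), stood at 3.23 without ipsilateral 8-1350 (adjusted p = 0.0371), and lost its call without contralateral 3-175 or 4-184 (adjusted p up to 0.0644). OXTR, the oxytocin receptor, was at 42.1, 142, 56.9, 69.02 and 62.3 against 106, 30.8, 58.5, 52.6 and 64.1 CPM and was not called (log2 0.26, SE 0.36, adjusted p = 0.680). PTGFR, the prostaglandin F receptor, reached 52.7 CPM in ipsilateral 8-1350 and 0 to 3.15 in the other 9 (adjusted p = 0.0721). Of 23 ion channels of excitable cells 8 were higher and 0 lower by edgeR, beside 10.7% higher among all genes, with a median of 0.83. Without ipsilateral 8-1350 5 were higher and the median was 0.37, and the count fell to 2 without contralateral 3-175. CACNA2D1, an auxiliary subunit of calcium channels, was at 114, 116, 88.7, 108 and 79.5 against 61.6, 35.005, 42.8, 62.5 and 49.7 CPM (log2 1.01, SE 0.17, adjusted p = 0.00424), and TRPC1, a cation channel, at 21.3 to 33.03 against 13.1 to 21.5 (log2 0.83, SE 0.16, adjusted p = 0.00767). KCNA2, a potassium channel, was at 1.38 to 4.81 against 0.258 to 1.37 CPM (log2 2.12, SE 0.51, adjusted p = 0.0188). CACNA2D1 and TRPC1 stayed called without each library, and KCNA2 was lost without contralateral 3-175 or contralateral 4-184.

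The centrosome is the organising centre of microtubules, and many of its proteins carry CEP names. Of 30 listed CEP genes 17 were higher and 0 lower by edgeR, beside 10.7% higher among all genes, with a median of 0.55. In 15 of them every ipsilateral library lay above every contralateral one, beside 9.47% of all genes. CEP97, a regulator of cilium formation, was at 23.7, 24.1, 21.2, 25.01 and 18.3 against 9.81, 7.76, 6.96, 10.6 and 12.6 CPM (log2 1.23, SE 0.17, adjusted p = 0.00165). CEP120, needed for centriole elongation, was at 88.6, 88.1, 81.1, 86.9 and 96.2 against 57.9, 50.3, 49.5, 49.8 and 60.5 CPM (log2 0.72, SE 0.084, adjusted p = 0.00131), and CEP162 (1.31), CEP70 (0.71) and CEP95 (0.64) rose with it. Outside the list, CEP170B was lower (-0.50), CEP295 (0.87) and a second entry of CEP162, CEP162-2 (0.81), were higher, and CEP19 was not called (0.48, adjusted p = 0.0784). The count was 13 to 19 of 30 without each library in turn and 17 without ipsilateral 8-1350.

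Blood and immune cell markers gave no calls over all 10 libraries. Without ipsilateral 8-1350, 1 B and plasma cell marker was called lower, and 0 of the other immune markers were called. In edgeR 0 of 13 T and NK cell, 0 of 5 B and plasma cell, 0 of 14 macrophage and dendritic cell and 0 of 7 neutrophil and mast cell markers were called; 0 of these passed an unadjusted p under 0.05, and DESeq2 called 0. Blood vessel endothelium had 0 of 15 (1 lower at an unadjusted p under 0.05, and 1 lower by DESeq2). Single calls came from stroma (COL1A1, of 15), pericytes (ABCC9, 0.88, of 8, lost in 7 fits), nerve and glia (ERBB3, -0.51, of 8) and oviduct epithelium (OVGP1, 0.67, of 4, lost in 6 fits). Of 49 ribosomal protein genes 0 were called, also at an unadjusted p under 0.05 and by DESeq2, with a median of 0.01; without ipsilateral 8-1350, where they summed to 53855 CPM against 28791 to 37952 in the others, 6 were lower and the median was -0.21. Interferon-stimulated genes varied between libraries rather than horns. ISG15, a ubiquitin-like protein induced by interferon, was at 115, 7.74, 2.24, 31.5 and 1.804 against 3.79, 76.3, 37.6, 3.88 and 2.66 CPM (log2 0.35, SE 1.22, adjusted p = 0.882), and MX1, an antiviral GTPase, at 816, 97.9, 55.9, 462 and 39.3 against 67.5, 693, 477, 65.3 and 69.6 (log2 0.10, SE 0.95, adjusted p = 0.960). The high libraries were ipsilateral 1-315 and 7-300 and contralateral 3-175 and 4-184, so in each case the other horn with the same tag was low. Across genes, ipsilateral 1-315 deviated most like contralateral 3-175 (r = 0.46) and ipsilateral 7-300 most like contralateral 4-184 (r = 0.51). Why the high libraries follow these matches and not the tags was not tested. None of 23 genes of this list was called by edgeR or DESeq2 or passed an unadjusted p under 0.05.

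**Figure D4:**
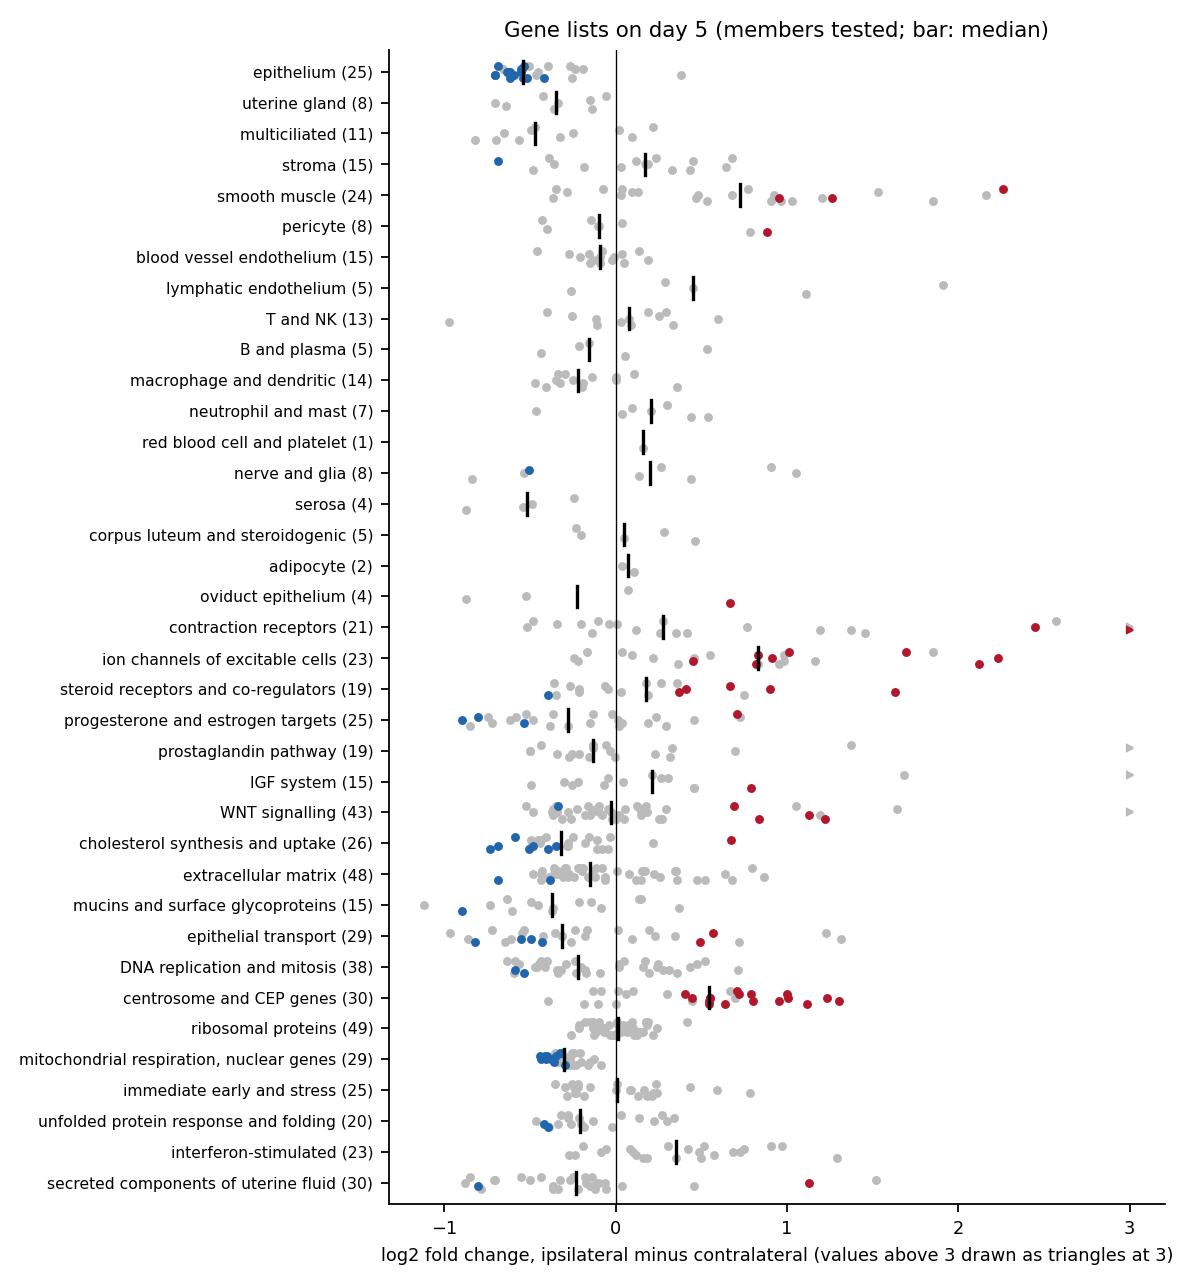
Points are the log2 fold changes, ipsilateral minus contralateral, of the tested members of each gene list (number in brackets), red where called higher, blue where called lower, grey otherwise, with a black bar at the median; values above 3 are drawn at 3. Epithelium (-0.54) and mitochondrial respiration (-0.30) lie left of 0 and CEP genes (0.55) right of it.

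The horn difference of day 5 was then set beside those of the other days, which rest on other libraries. The same test called 1624 genes on day 7 (8.68%), 742 on day 13 (3.97%) and 734 on day 16 (3.93%). Of the 2884 genes of day 5, 1210 were also called in the same direction on day 7, which is 42.0% of the day 5 list and 74.5% of the day 7 list, 1035 of them higher and 175 lower, and 0 were called in the opposite direction. The shared calls with day 13 were 589 (20.4% of day 5, 79.4% of day 13) and with day 16 619 (21.5% and 84.3%), again with 0 opposite. Of the 10 genes with the smallest p-values on day 5, 10, 7 and 9 were called higher on days 7, 13 and 16. The log2 fold change of TRPM7 was 0.76 on day 7, 0.57 on day 13 and 0.57 on day 16, and that of ROCK2 was 0.99, 0.86 and 0.83. Of the 15 highest genes without overlap 4 were called on day 7 and 0 on days 13 and 16, and of the 15 lowest without overlap 0 were called on any of these days. All these sets were picked by their day 5 values. CLGN, among the highest, was not tested on days 7 and 13 and so could not be called there. On day 7 NF1 (1.77, adjusted p = 0.0271) and FGF2 (0.71, adjusted p = 0.00762) were called, while CEP97 (1.098, 0.0521), KRT8 (-0.30, 0.173), MYH14 (-0.29, 0.303) and NDUFV1 (-0.18, 0.260) had the same sign and were not.

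A larger value on day 5 is not by itself a change with day, so the difference was tested. Over all 40 libraries edgeR found 0 of 20356 genes (0%) whose horn difference on day 5 differed from the mean of days 7, 13 and 16, with 1759 at an unadjusted p under 0.05 and a smallest adjusted p of 0.0592; limma-voom also gave 0. Day 5 against day 7 alone gave 0 genes (0%), with 652 at an unadjusted p under 0.05. Leaving out 1 library gave calls in 4 of 10 cases of the first test: 5 genes without ipsilateral 1-315, 6 without ipsilateral 7-300, 11 without ipsilateral 3-175 and 28 without ipsilateral 4-184. The 5 were CLGN, FBXO32, HPSE2, PDLIM3 and RSPO1. Without ipsilateral 8-1350 there were 0.

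**Figure D5:**
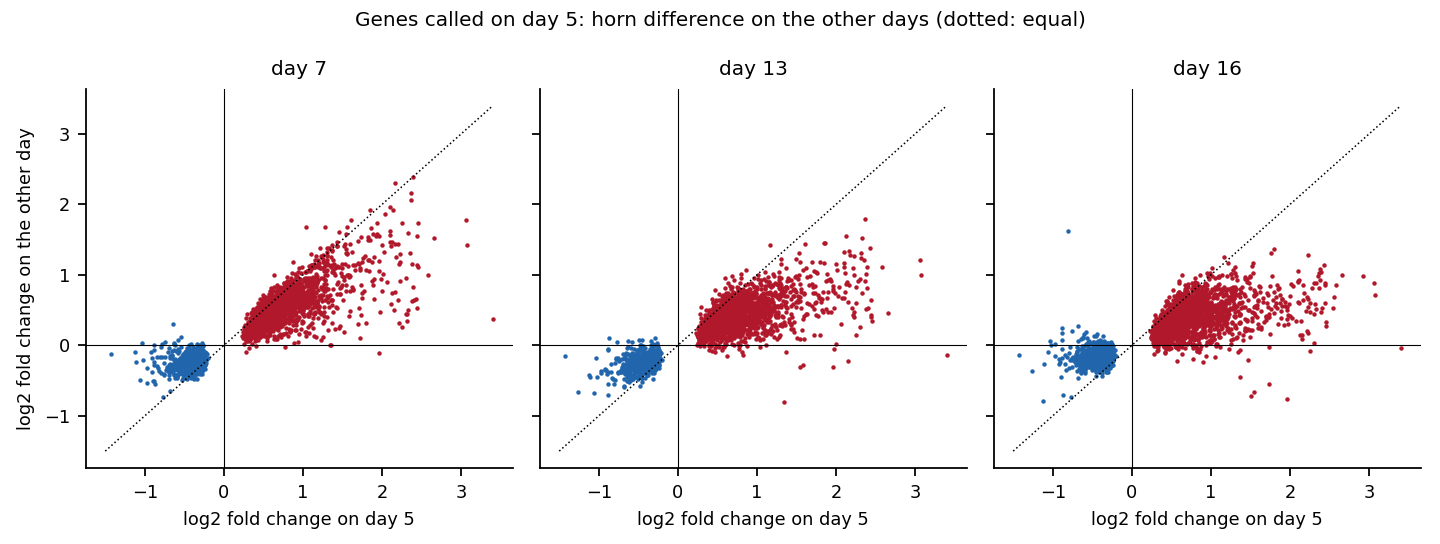
Points are the genes called on day 5, red where higher and blue where lower, with their day 5 log2 fold change on the x axis (7 genes above 3.5 are not drawn) and that of day 7, 13 or 16, from its own 10 libraries, on the y axis. Nearly all keep their sign, and most values lie closer to 0 than the dotted line of equality.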

How the data were processed

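Poly(A) RNA libraries (TruSeq stranded mRNA kit) came from endometrial homogenate, per the labels' protocols. The authors deposited raw counts per gene for 40 libraries, and the submitters' processing notes name FastQC, HISAT2, featureCounts and UMD3.1, with no versions. No source used here says whether counting used strand or how shared reads were handled, so antisense partners and near copies are uncertain. Of 32671 gene names 20070 are symbols in the RefSeq table of ARS-UCD2.0, and the row of mitochondrial DNA stayed out of library sizes and tests (mean share 0.120% and 0.119%).

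The 10 day 5 libraries were fitted in edgeR 4.0.16 (R 4.3.3) with TMM scaling, filterByExpr, the quasi-likelihood test and Benjamini-Hochberg adjustment over all genes tested, at 0.05. CPM values use TMM library sizes, and SEs come from the quasi-likelihood F statistic. Whole-library measures had an exact two-sided permutation test over 252 arrangements. The tests were tested on simulated data. DESeq2 1.42.0, limma 3.58.1 (voom), other scalings, filters, covariates, a block for the tags and leaving out libraries were alternatives. TRNAU1AP, which codes for protein, was kept out of the tRNA genes.

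Named genes were symbols called at a mean log2 CPM of at least 0 without overlap (15 highest, 15 lowest), the 10 smallest p, up to 5 members with the smallest p of each of 37 lists, and a short set always named. The comparison, lists and rule were chosen with earlier results of these data known. XIST, ACTA2, MYH11, DES, HPSE2, NCOA3, SLC12A2, FBXO32, PDLIM3 and the microRNA genes were named after their values were seen. The horns share tags, but only 1 of 5 tags matched its own tag best, so the libraries were not paired. CEP genes outside the list were picked with their values in view. Some genes that met the rule are not reported here.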

Additional observations from a re-analysis of the deposited data

Results flagged for a closer look

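A single library lay far from the other 4 of its horn, by Dixon's test, in 21 of 210 groups of 5 checked, and chance gives about 1 in 20. In 13 of the 21 the library was ipsilateral 8-1350. It was the high one at 152.7 CPM for RSPO1, 236.6 for HPSE2, 15.78 for CLGN, 135.1 for PGM2L1, 114 for SLC7A2, 120.7 for PRKG1 and 2957 for IGFBP5. Among genes of smooth muscle it was high at 925.5 CPM for CALD1, 30.58 for MYOCD, 2515 for ACTA2, 513.6 for MYH11 and 501.7 for DES. For UQCRC1 it stood at 99.66 CPM, above 91.19 to 93.5 in the other 4. ACTA2, MYH11, DES and HPSE2 had been picked for this library's values. RSPO1, CLGN, PGM2L1, SLC7A2 and PRKG1 had been named for large rises, which were smaller without this library. The part of all these genes in the count of 13 is no independent sign, and the rate of 1 in 20 does not apply to them.

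Ipsilateral 4-184 was low for CHRM2 (25.97 CPM against 108.8 to 187.5) and TRPC1 (21.31 CPM), and high for AP1M2 (69.38 CPM) and EBP (21.35 CPM). Ipsilateral 3-175 was low for NCOA1 (76.94 CPM) and ipsilateral 7-300 for LRP5 (43.87 CPM). In the contralateral horn, 7-300 was low for MYH14 (273.7 CPM against 393.4 to 434.9) and CYC1 (81.62 CPM).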

How the results depend on the processing

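In place of 2884 genes, the test called 4628 on day 5 with all 40 libraries in the fit (54.2% of them higher; 2695 of the 2884 were among them) and 0 with the microRNA and tRNA covariate in 10 libraries. Leaving out 1 library gave totals of 1506 to 3252. The genes called on day 5 that were also called on day 7 numbered 2014 with DESeq2 in place of 1210, and 883 to 1275 without 1 library. Calls for day 5 against the other days ran from 0 to 28 without 1 library, all from ipsilateral ones left out, and those against day 7 stayed at 0. The cause was not tested.

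A replicate block on the tags gave 1760 genes on day 5 and 508 shared with day 7. Only 1 of 5 tags matched its own tag best, so the block follows the labels and mostly not the closest libraries.

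The ratio of library totals ran from 0.920 (without ipsilateral 3-175) to 1.18 without 1 library. The microRNA share ratio ran from 1.26 to 1.32, with an adjusted p of 0.0635 (exact permutation) without any 1 contralateral library. The tRNA share ratio ran from 1.12 to 1.22, the highest without ipsilateral 8-1350 (adjusted p = 0.0159, exact permutation). The mitochondrial ratio was 0.998 on log2 values and 0.912 to 1.09 without 1 library, 0.964 without ipsilateral 4-184, 0.935 without contralateral 1-315 and 0.995 without contralateral 7-300.

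Of 90 called genes named in the text, 58 stayed called without each library in turn, 62 with the block and 59 with the covariate in 40 libraries.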
